A study of Drosophila melanogaster with 9 samples.

Results

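The odorant-binding protein (Obp) family of Drosophila melanogaster was followed through the larval transcriptome at 3 rearing densities. Members were all rows of the deposited table whose symbol was Obp followed by a number, which gave 51 genes of 17759. Each library came from a pool of 10 whole wandering larvae in their last instar, raised on a sugar and yeast diet and snap-frozen before RNA extraction and stranded poly(A) library preparation. The low, medium and high groups, with 3 libraries each, are given in the study's design as 5, 60 and 300 eggs per ml, while the protocol speaks of counted first-instar larvae. The low group is the least crowded condition and served as the reference. Strain, sex and age at collection are not stated, so wandering larvae of the 3 densities are matched by behaviour and not by a stated age. The labels do not say whether the pools of a group came from separate cultures, so p-values measure the spread between these pools.

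Odorant-binding proteins are small secreted proteins held in shape by conserved cysteines. They are best known from the fluid that bathes olfactory and taste neurons, where they bind odorants, pheromones or tastants, and they are secreted by support cells of the sense organs rather than by the neurons. Many members are also made outside the chemosensory organs, for example in glia, fat cells, gut or the male reproductive tract. In fly larvae the head carries few olfactory and taste organs, and whole-larva RNA is dominated by fat body, muscle, gut and salivary glands. In such bulk RNA, fewer cells of a type and less RNA per cell cannot be told apart.

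All 51 members were annotated as protein-coding. Coding lengths had a median of 151 residues and ran from 117 (Obp22a and Obp51a) to 259 (Obp73a). Of the members, 29 lie on chromosome arm 2R, 12 on 3R, 6 on X, 2 on 2L and 2 on 3L (Release 6 coordinates). With gaps of at most 100 kb, 36 members fell into 8 genomic clusters and 15 stood alone. The Obp56 cluster was the largest, with 9 genes from Obp56a to Obp56i between 19697723 and 19868714 on 2R. The Obp99 cluster on 3R, from 29671657 to 29716896, holds Obp99a, Obp99b, Obp99c and Obp99d. The family gene lush, which encodes the binding protein for a male pheromone, has another kind of symbol and is described with the other chemosensory genes.

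Library totals ranged from 16822606 to 25141308 counts, so that 3 counts, taken as the floor, stood for 0.119 to 0.178 CPM (counts per 1000000 counts of the library). CPM values below are scaled with TMM factors. Levels of different genes are compared only as CPM per kb of summed exon length. Within groups, the median SD of log2 CPM (pseudocount 0.1) over all genes tested was 0.13 in the low libraries, 0.15 in the medium ones and 0.23 in the high ones. For the tested members it was 0.26, 0.25 and 0.42. Counting error adds to these values, since many members have few counts, but how much of them it makes up was not tested.

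A small number of members carried nearly all the family's transcript. Obp99b ranked 3 among all 17759 genes at 13366 CPM per kb, as a mean over the 9 libraries. Obp56d followed with 982, Obp99c with 419, Obp44a with 327 and Obp99a with 151 CPM per kb. Another 13 members lay between 1 and 100 CPM per kb, and 33 lay under 1. In the order of levels, the range of Obp99b over the 9 libraries lay wholly above that of Obp56d, and Obp56d wholly above Obp99c. The ranges of Obp99c and Obp44a overlapped. Obp44a lay wholly above Obp99a, and Obp99a wholly above Obp56a at 67.8 CPM per kb. From Obp56a downward the neighbours overlapped, with Obp83ef at 52.8, Obp28a at 16.7, Obp49a at 8.80 and Obp56h at 7.15 CPM per kb.

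**Figure D1:**
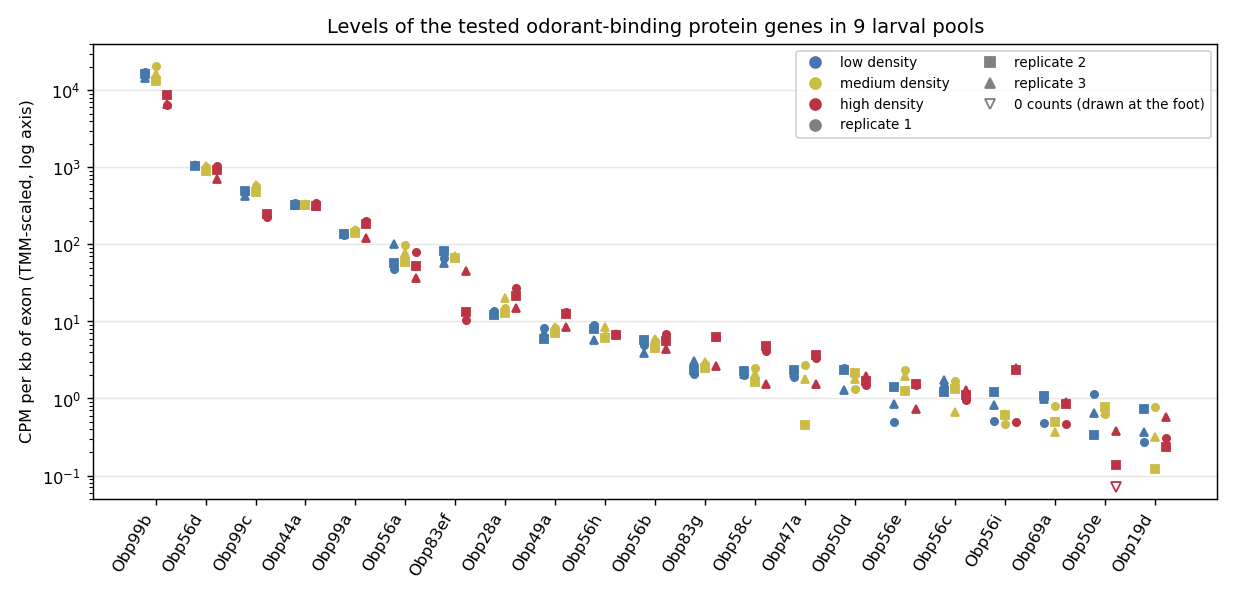
Level of the 21 tested members in CPM per kb of exon (log axis), ordered by their mean over 9 libraries. Each library is 1 point coloured by density. Obp99b stands at 13366 CPM per kb, 13.6-fold above Obp56d. The 30 members left out by the filter are not drawn.

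Members at or near the floor made up 25 of the 51, among them 3 for which the counting could give no value, as described below. At most 3 counts in all 9 libraries were found for 17 members, namely Obp8a, Obp19a, Obp19b, Obp22a, Obp50b, Obp50c, Obp51a, Obp56g, Obp57a, Obp57b, Obp57c, Obp57d, Obp59a, Obp73a, Obp83a, Obp85a and Obp99d. A further 8 had at most 3 counts in at least 5 libraries and never more than 12, namely Obp19c, Obp47b, Obp50a, Obp56f, Obp58b, Obp83b, Obp84a and Obp93a. Several of these genes are known from adults: Obp83a and Obp83b from olfactory sensilla, Obp59a from humidity sensing, Obp19b from amino acid taste, and Obp8a, Obp22a, Obp51a, Obp56f and Obp56g from seminal fluid. In the Obp57 cluster, which includes Obp57d and Obp57e of host-plant acid taste, Obp57a, Obp57b and Obp57c were at the floor. Obp57e was left out by the filter on low counts, and the zeros of Obp57d are not informative, as described below. Between 26 and 29 members exceeded 3 counts in any one library.

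For 3 of the members listed at 0 in every library, the counting itself could give no value. Obp50b and Obp50c are annotated on the same exons (2R, 14371186 to 14373006, 1648 bases, none of them unshared). All 1488 exon bases of Obp57d are shared with Cpr57A, a cuticle protein gene that was also listed at 0. Read pairs that overlap 2 genes on 1 strand were not assigned, as the recorded counting command sets no option for them, so these zeros say nothing about expression. Obp22a, also at 0 throughout, shares no exon bases, and its zeros allow up to 3 counts per library. The 5 members Obp18a, Obp46a, Obp57e, Obp58d and Obp83cd were above the floor classes but did not pass the filter, with mean CPM per kb between 0.352 (Obp58d) and 0.578 (Obp57e).

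The remaining 21 members were tested, and 10 of them had mean counts under 50, which limits their precision. They were Obp19d, Obp28a, Obp44a, Obp47a, Obp49a, Obp50d, Obp50e, Obp56a, Obp56b, Obp56c, Obp56d, Obp56e, Obp56h, Obp56i, Obp58c, Obp69a, Obp83ef, Obp83g, Obp99a, Obp99b and Obp99c. Of the Obp56 cluster 7 of 9 genes were tested, and of the Obp99 cluster 3 of 4.

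The family's share of all counts was lower at high density, and Obp99b accounted for most of that. The 51 genes together took 1.18%, 1.17% and 1.02% of the low libraries, 1.29%, 0.916% and 1.07% of the medium libraries, and 0.565%, 0.765% and 0.597% of the high libraries. The high group lay wholly below both others. Obp99b alone took 0.938% ± 0.0847, 0.921% ± 0.184 and 0.476% ± 0.1003 of the libraries in these groups (SD, n = 3). Without Obp99b the share was 0.186% ± 0.00376 in the low group, 0.171% ± 0.00784 in the medium group and 0.167% ± 0.0160 in the high group (SD, n = 3). Obp99b made up 83.4% ± 1.07 of the family's counts in the low group, 84.1% ± 2.25 in the medium group and 73.7% ± 3.89 in the high group. Over the same groups the part of Obp56d went from 8.77% and 7.76% to 14.1%, and that of Obp44a from 3.15% and 3.05% to 6.02%. These are parts of a whole and move when Obp99b does.

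**Figure D2:**
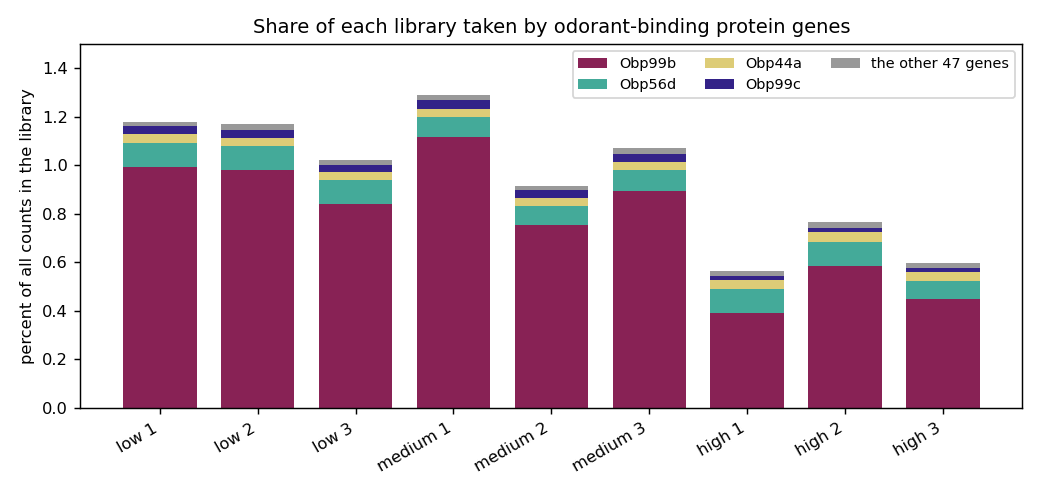
Share of all counts taken by the family in each of the 9 libraries, in percent, divided into Obp99b and other members. The 3 high-density libraries take 0.565% to 0.765%, below the lowest of the other 6 libraries at 0.916%.

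High density was compared with low density to set strong crowding beside the least crowded condition. With edgeR's quasi-likelihood test adjusted over all 12883 genes tested, 2 of the 21 tested members passed an adjusted p of 0.05, and both were lower. That is 9.52% of the tested members, beside 15.2% of all genes tested. Lower calls made up 11% of all genes and higher calls 4.18%. The median log2 fold change was -0.14 over the members and 0.06 over all genes tested, with 9 members higher and 12 lower.

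Obp99b, earlier named turn on sex-specificity and known from fat cells of the adult head, lies on 3R from 29716254 to 29716896 on the minus strand. Its level was 10151, 9706 and 8581 CPM in the low libraries, 12340.0, 7961 and 9777 in the medium libraries, and 3827, 5132 and 3980 in the high libraries. The 3 high libraries lay below all 6 others, while low and medium overlapped. The means were 9479 ± 809, 10026 ± 2200.3 and 4313 ± 714 CPM (SD, n = 3). From low to high density the log2 fold change of Obp99b was -1.14 (SE 0.19, edgeR adjusted p = 0.00723), with a 95% interval of -1.57 to -0.70. Against medium density it fell by 1.22 (SE 0.19, edgeR adjusted p = 0.00462).

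Obp99c (3R, 29685736 to 29689311, minus strand) belongs to the same cluster. It was read at 318, 333 and 287 CPM in the low libraries, 387, 318 and 395 in the medium libraries and 153, 167 and 164 in the high libraries. The high libraries were tightly grouped below the other 6, and the low and medium groups overlapped. From low to high density its log2 fold change was -0.95 (SE 0.10, edgeR adjusted p = 0.00196, 95% interval -1.19 to -0.72). From medium to high it fell by 1.18 (SE 0.10, edgeR adjusted p = 0.00106). Its exons overlap those of Gycalpha99B on the opposite strand, and the authors' counting used strand.

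The third tested gene of the cluster, Obp99a (3R, 29671657 to 29672334, plus strand), had levels of 81.6, 82.7 and 83.7 CPM in the low libraries, 93.2, 85.1 and 94.4 in the medium ones and 121.6, 111 and 73.9 in the high ones. High replicates 1 and 2 lay above every other library and high replicate 3 below all of them. The log2 fold change between high and low was 0.31 (SE 0.16, edgeR adjusted p = 0.242, 95% interval -0.06 to 0.67). Without high replicate 3 it was 0.50 with an adjusted p of 0.00223 in the same edgeR test. That was the only 1 of 19 alternatives to call it between high and low. The difference shrank to 0.16 when another library was left out, and edgeR, DESeq2 or limma adjusted p ran up to 0.479.

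Fat body markers differed among themselves over the same libraries. Of 6 larval fat body genes (Lsp1alpha, Lsp1beta, Lsp1gamma, Lsp2, Fbp1 and Fbp2), Fbp1 and Fbp2 were called lower at high density against low and against medium. Fbp2 fell by 0.91 from low to high (edgeR adjusted p = 0.00842) and Fbp1 by 0.76 (edgeR adjusted p = 0.0321). The log2 differences of Lsp1alpha, Lsp1beta, Lsp1gamma and Lsp2 were -0.58, 1.12, 0.63 and 0.18, none of them called. The summed level of the list was 55864 to 59828 CPM in the low, 56011 to 88699 in the medium and 39301 to 62067 in the high libraries, so the groups overlapped. Within the high group it was 62067, 41708 and 39301 CPM in replicates 1, 2 and 3. Salivary glue genes summed to 39270 to 44975 CPM in the low, 39010 to 47792 in the medium and 20118 to 35662 in the high libraries. Between high and low density 3 of the 6 glue genes were called lower and Sgs1 was called higher, by 2.12 (edgeR adjusted p = 0.00848). Of the 4 new glue genes, which mark an earlier salivary gland, 3 were called higher and ng4 was at 0; their sum was 2.22 to 2.71 CPM at low and 111 to 205 at high density. The part of tissue make-up or developmental timing in the fall of Obp99b and Obp99c was not tested.

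Obp83ef (3R, 6109642 to 6111034, minus strand) encodes a long member of 245 residues, one of those with a repeated binding-protein domain. It was at 59.6, 73.2 and 51.1 CPM in the low libraries, 59.5, 59.5 and 63.2 in the medium libraries and 9.41, 12.01 and 40.4 in the high libraries. All 3 high libraries lay below the other 6, and high replicate 3 stood much nearer to them than replicates 1 and 2. Against medium density Obp83ef was lower, at -1.55 on the log2 scale (edgeR adjusted p = 0.0328, SE 0.48), a call that was lost in 9 of 19 alternative settings. Against low density the difference was -1.56 (SE 0.48, edgeR adjusted p = 0.0618, 95% interval -2.66 to -0.47) and was not called. Without high replicate 3 the difference from low was -2.52, with an edgeR adjusted p of 4.87e-05. It shrank to -1.22 when another library was left out. Against low it was called in 3 of 19 alternatives, with edgeR, DESeq2 or limma adjusted p up to 0.176.

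Its neighbour Obp83g (3R, 6111671 to 6112302, minus strand) differed in sign. Levels were 1.17, 1.34 and 1.76 CPM in the low libraries, 1.59, 1.43 and 1.70 in the medium ones and 3.54, 3.59 and 1.48 in the high ones. High replicates 1 and 2 exceeded every other library, and high replicate 3 lay among them. The difference from low was 1.002 (SE 0.35, edgeR adjusted p = 0.092) and was not called. Obp83cd, a similar long protein of 242 residues whose exons overlap those of Obp83ef on the opposite strand, was left out by the filter at 0.354 CPM per kb.

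**Figure D3:**
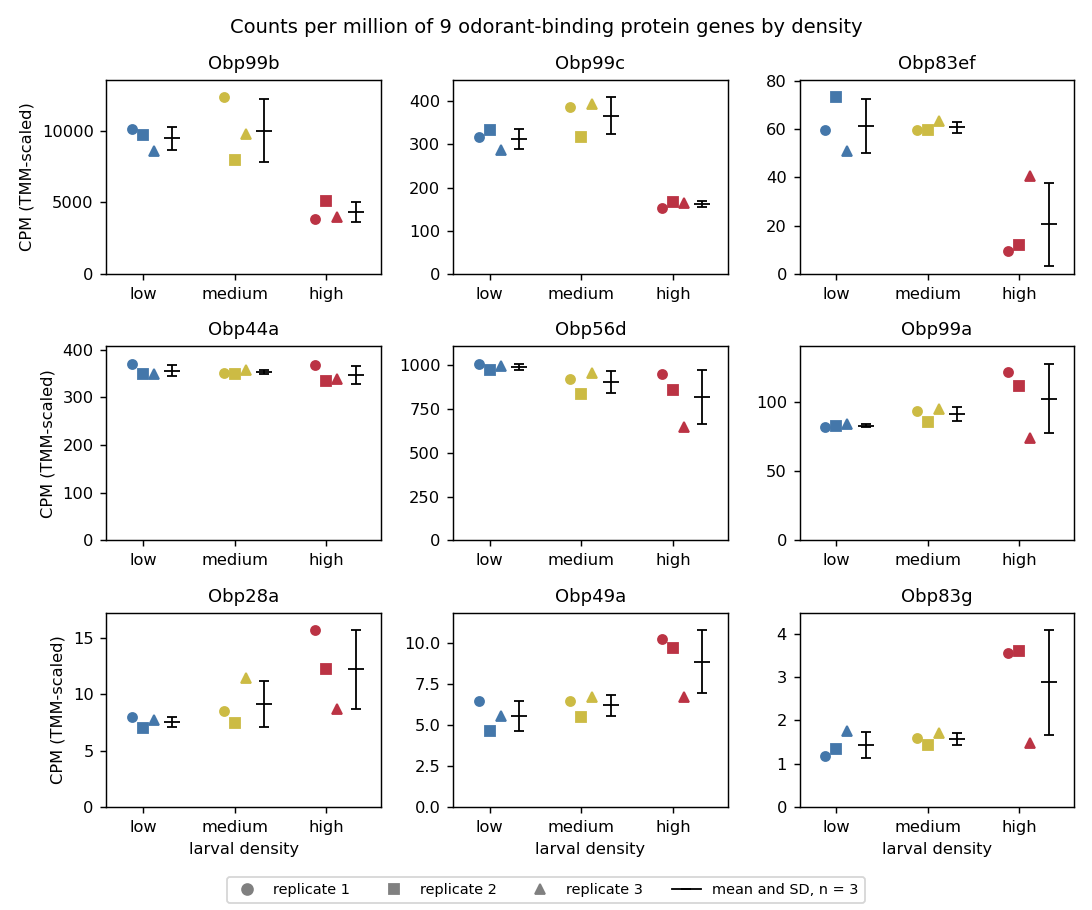
CPM of 9 members in each library (marker shape gives the replicate, the bar the mean and SD of 3 libraries) against larval density, each panel on its own linear axis from 0. Obp99b and Obp99c are low in all 3 high-density libraries, Obp44a stays between 335 and 371 CPM, and high replicate 3 departs from replicates 1 and 2 in Obp83ef, Obp99a and Obp83g.

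Obp49a and Obp28a were the members with groups that did not overlap upward between low and high density. Obp49a (2R, 12690059 to 12690955, minus strand), which in adult taste sensilla lets bitter compounds suppress the sweet response, was at 6.43, 4.65 and 5.55 CPM in the low libraries, 6.44, 5.45 and 6.69 in the medium ones and 10.2, 9.67 and 6.67 in the high ones. High replicates 1 and 2 exceeded all others, while replicate 3 was within the medium range. Its difference from low was 0.67 (SE 0.20, edgeR adjusted p = 0.0561, 95% interval 0.22 to 1.13). It was not called in that test, though it passed in 6 of 19 alternative settings.

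Obp28a (2L, 7496791 to 7497365, minus strand), one of the abundant binding proteins of the adult antenna, was at 7.95, 7.03 and 7.67 CPM at low density. It was at 8.55, 7.42 and 11.4 CPM in the medium libraries and at 15.7, 12.2 and 8.72 in the high libraries. Every high library lay above every low one, but the medium group overlapped both. The difference between high and low was 0.69 (SE 0.23, edgeR adjusted p = 0.0814, 95% interval 0.16 to 1.22).

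In all, 6 of the 21 tested members had CPM ranges that did not overlap between high and low density. Obp28a and Obp49a were higher, and Obp56d, Obp83ef, Obp99b and Obp99c were lower. That is 28.6% of the tested members, beside 33% of all genes tested (13.4% higher and 19.6% lower). At an unadjusted p under 0.05 there were 7 members, beside 30.1% of all genes.

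Obp44a (2R, 8134170 to 8135315, minus strand), known from glia of the larval brain, was among the most even members. Its levels were 371, 349 and 350 CPM in the low libraries, 352, 349 and 358 in the medium ones and 369, 335 and 338 in the high ones. The 3 groups overlapped throughout. The difference between high and low was -0.04 (SE 0.07, edgeR adjusted p = 0.732, 95% interval -0.19 to 0.12). Its sign turned with the scaling, being 0.11 on unscaled library totals and 0.05 under upper-quartile scaling. On library totals alone its means were 353, 326 and 380 CPM at low, medium and high density. In that setting Obp44a was called higher between high and medium and passed the joint test, so its evenness depends on the scaling. The 6 glia markers (repo, alrm, moody, wrapper, Eaat1 and nrv2) summed to 140 to 151 CPM at low, 144 to 151 at medium and 168 to 175 at high density. Of that sum nrv2 took 91.6 to 94.7 CPM at low and 105 to 119 at high density. Only nrv2 was called between high and low, higher by 0.25 (edgeR adjusted p = 0.048). Between high and medium nrv2 was called higher and moody was called lower, at -0.32 (edgeR adjusted p = 0.0332).

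Among the Obp56 genes, Obp56d (2R, 19702924 to 19703915, minus strand) was the most abundant. It stood at 1005, 973 and 997 CPM in the low libraries, 922, 837 and 954 in the medium ones and 949, 860 and 647 in the high ones. Each low library exceeded each medium and high library, by small amounts apart from high replicate 3. The difference between high and low was -0.28 (SE 0.14, edgeR adjusted p = 0.214, 95% interval -0.58 to 0.03). It was -0.13 both without high replicate 3 and on library totals alone.

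Obp56a (2R, 19697723 to 19698508, plus strand) was at 26.3, 31.6 and 55.1 CPM in the low libraries, 54.3, 32.4 and 41.7 in the medium ones and 43.5, 28.9 and 19.9 in the high ones. The groups overlapped widely, with a difference of -0.29 between high and low (SE 0.35, edgeR adjusted p = 0.593), and 0.08 without low replicate 3. Obp56h (2R, 19815554 to 19816204, plus strand), which in adults bears on cuticular hydrocarbons and mating, was at 5.26, 4.73 and 3.38 CPM in the low libraries, 3.89, 3.67 and 5.09 in the medium ones and 4.13, 4.005 and 4.02 in the high ones. These groups overlapped as well, with a difference of -0.14 (SE 0.21, edgeR adjusted p = 0.672), which was 0.01 on library totals alone.

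Medium density against low set moderate crowding beside the least crowded condition. No member was called by edgeR, DESeq2 or limma voom, beside 0% of all genes tested with edgeR and limma voom and 12.2% with DESeq2. At an unadjusted p under 0.05 edgeR gave 1 member, beside 25% of all genes. The median log2 fold change was -0.01 over the members and 0.02 over all genes. Ranges did not overlap for 2 members, with Obp99a higher and Obp56d lower, beside 40.4% of all genes (18.2% higher and 22.2% lower).

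The smallest p-values in this comparison belonged to Obp99c, Obp56e and Obp69a. Obp99c differed by 0.23 (SE 0.10, edgeR adjusted p = 0.20). Obp56e, a gene of adult seminal fluid, was at 0.261, 0.754 and 0.451 CPM in the low libraries, 1.25, 0.670 and 1.05 in the medium ones and 0.802, 0.832 and 0.388 in the high ones. Its low and medium groups overlapped, with a difference of 1.002 (SE 0.46, edgeR adjusted p = 0.219).

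Obp69a, which bears on social responses of adults, was at 0.261, 0.586 and 0.541 CPM in the low libraries, 0.432, 0.268 and 0.200 in the medium ones and 0.253, 0.468 and 0.494 in the high ones. All 3 groups overlapped at this low level, and the difference between medium and low was -0.61 (SE 0.47, edgeR adjusted p = 0.439).

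High density against medium compared strong with moderate crowding. Of the 21 tested members 3 were called, all lower, namely Obp99b, Obp99c and Obp83ef. That is 14.3% of the tested members, beside 39.6% of all genes, with 21.3% of all genes higher and 18.3% lower. The median log2 fold change was -0.02 over the members and 0.01 over all genes. Ranges did not overlap for the same 3 and for Obp50e, all lower, beside 49.2% of all genes (24.2% lower). At an unadjusted p under 0.05 there were 7 members, beside 49.3% of all genes. The comparisons of high with low and high with medium share the high libraries. In the joint test for any difference among the 3 densities, 2 members passed, Obp99b (edgeR adjusted p = 0.0084) and Obp99c (0.0020), beside 33.6% of all genes.

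**Figure D4:**
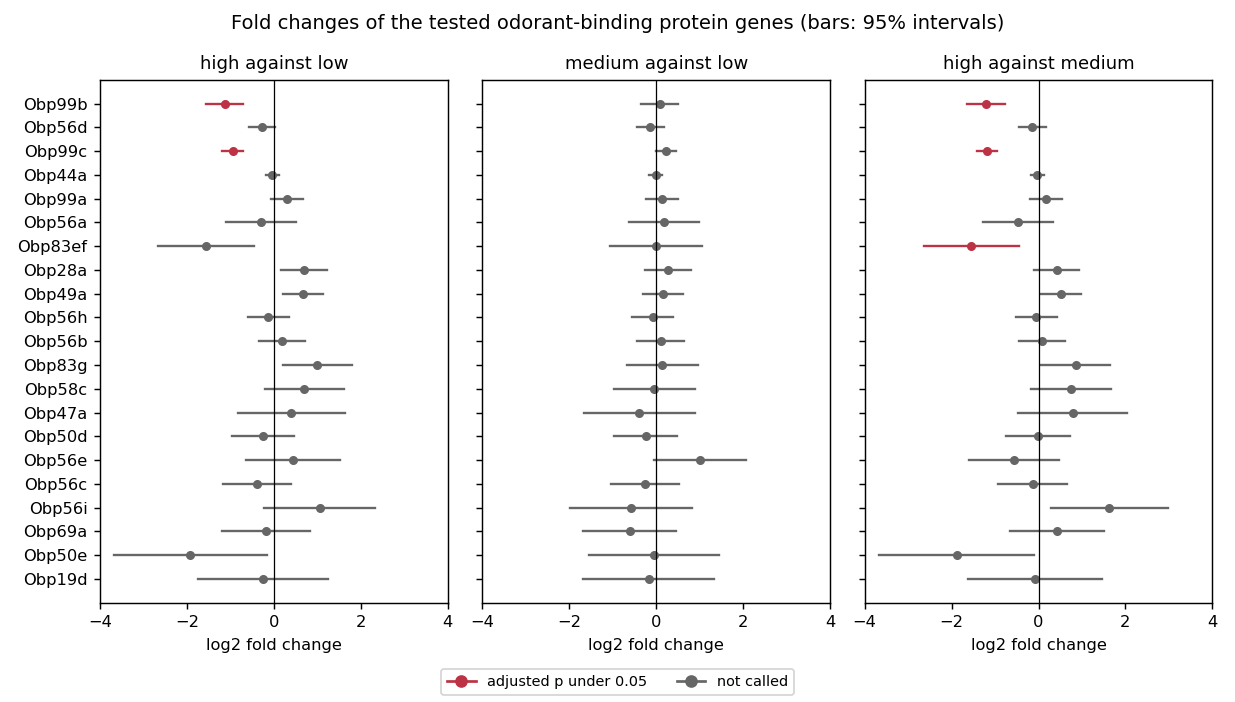
Log2 fold change of the 21 tested members in the 3 comparisons, with 95% intervals, ordered by mean CPM per kb, with called members in red. Obp99b and Obp99c lie below 0 by -0.95 to -1.22 in both comparisons with high density, and medium against low has no called member.

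Obp50e and Obp56i had some of the widest differences and the lowest counts. Obp50e was at 0.869, 0.251 and 0.496 CPM in the low libraries, 0.481, 0.581 and 0.499 in the medium ones and 0, 0.104 and 0.282 in the high ones. Its high libraries overlapped the low group and lay below the medium group, and the difference from medium was -1.89 (SE 0.78, edgeR adjusted p = 0.0853).

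Obp56i (2R, 19864717 to 19868714, plus strand), also known from adult seminal fluid, was at 0.521, 1.26 and 0.857 CPM in the low libraries, 0.481, 0.626 and 0.649 in the medium ones and 0.506, 2.39 and 2.58 in the high ones. High replicates 2 and 3 exceeded the other 7 libraries, and high replicate 1 did not. The difference between high and medium was 1.63 (SE 0.59, edgeR adjusted p = 0.0563). Spermatocyte markers (betaTub85D, can, sa, mia, nht and aly) summed to 151, 274 and 320 CPM in the 3 high libraries, in the same order, to 59.8 to 123 CPM at medium density and to 168 to 217 CPM at low density. The roX RNAs of male dosage compensation summed to 361, 611 and 599 CPM in the high libraries to 137 to 422 at medium density and to 345 to 791 at low density. Low replicate 1 had the highest roX sum of all 9 libraries and an Obp56i level of 0.521 CPM. With the roX level as a covariate the difference was 1.296 (edgeR adjusted p = 0.322). The share of males in each pool is not stated, and its part in the Obp56i levels was not tested.

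High replicate 3 decided several calls. Without it 9 of 23 tested members (39.1%) were called between high and low density, beside 21.2% of all genes, with Obp28a, Obp49a, Obp58c, Obp83g and Obp99a higher and Obp50e, Obp83ef, Obp99b and Obp99c lower. The same 9 were called between high and medium density, where 37.2% of all genes were called, a share near that of the members. Obp58c, for example, was at 2.87 and 3.33 CPM in high replicates 1 and 2 and at 1.06 in replicate 3, with 1.39 to 1.59 at low density. Muscle markers (Mhc, Act57B and Mlc2) were, like Obp58c, higher in high replicates 1 and 2 than in replicate 3. They summed to 6669, 5148 and 2414 CPM in high replicates 1, 2 and 3 and 1320 to 2031 at low density. Hemocyte markers also fell over the 3 high replicates, at 476, 253 and 175 CPM, while spermatocyte markers rose, at 151, 274 and 320 CPM. Their part in the result was not tested.

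The other chemosensory genes were mostly too low to test in whole larvae. Of 213 rows for odorant (Or), ionotropic (Ir) and gustatory (Gr) receptors, CheA and CheB proteins, lush, Snmp proteins and the chemosensory protein family, 119 never exceeded 3 counts and 29 were tested. Between high and low density 3 of the 29 (10.3%) were called, with 1 higher and 2 lower, beside 15.2% of all genes, and the median log2 fold change was 0.20 beside 0.06 over all genes. Between medium and low none was called by edgeR, with 6 at an unadjusted p under 0.05, beside 25% of all genes, and 1 called by DESeq2, beside 12.2%. Between high and medium 4 (13.8%) were called, with 2 higher and 2 lower, beside 39.6% of all genes.

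Phk-3, a secreted chemosensory protein that like the Obp proteins binds small ligands, was called lower in both comparisons with high density. Its mean was 222 ± 5.48 CPM in the low libraries, 186 ± 32.7 in the medium ones and 96.7 ± 13.2 in the high ones (SD, n = 3). It fell by 1.20 from low to high (SE 0.14, edgeR adjusted p = 0.00256) and by 0.94 from medium to high (SE 0.14, edgeR adjusted p = 0.00398), and it kept both calls in all 19 alternative settings. Of the receptors, Gr64a, a sugar receptor, was higher by 1.85 (SE 0.48, edgeR adjusted p = 0.0355) and Gr59f was lower by a log2 difference of -2.30 (SE 0.60, edgeR adjusted p = 0.0358) at high against low density. Between high and medium density Ir100a differed by 3.09 (edgeR adjusted p = 0.0231), Ir76a by 1.20 (0.0384) and Or35a by -1.40 (0.0452). Each of these 5 receptors averaged at most 7.13 CPM in any group. Their calls were lost in 9 of 18 alternatives for Gr59f, 7 of 18 for Gr64a, 4 of 17 for Ir100a, 6 of 19 for Ir76a and 12 of 18 for Or35a, and Ir100a never exceeded 13 counts.

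Genes of the olfactory sense organs themselves were sparse. Orco, the co-receptor of odorant receptors, had 2 to 13 counts per library and was not tested. Snmp1, a membrane protein of pheromone-sensing neurons, averaged 1.28 ± 0.335 CPM in the low libraries, 1.55 ± 0.499 in the medium ones and 1.42 ± 0.481 in the high ones. The binding protein lush averaged 0.332 ± 0.320 CPM in the low libraries, 1.31 ± 0.529 in the medium ones and 0.816 ± 0.572 in the high ones. Between medium and low its log2 difference was 1.95 (SE 0.71, edgeR adjusted p = 0.147). Between high and low it was 1.23 (SE 0.73, edgeR adjusted p = 0.301). No comparison called lush, which had 2 to 42.4 counts per library. The summed chemosensory neuron markers (Orco, Ir25a, Ir8a and Ir76b) were between 0.581 and 2.28 CPM in all 9 libraries, and those of sense organ support cells (nompA and Snmp2) between 3.94 and 6.55 CPM.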

How the data were processed

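The deposited table holds expected counts, not normalized by the authors, for 17759 genes in 9 libraries. The authors made them with featureCounts 1.6.2, per the file headers: RefSeq exons of Release 6 (dm6) were summed by gene, pairs were assigned on the reverse strand, and chimeric pairs or those with 1 mapped end were not used. Pairs with several mapping places were divided among them, and 5.06% of values are not whole. Among the members fractions occurred only in Obp99b and Obp44a. The submitters' processing notes also name Trim Galore 0.6.4, HISAT2 2.1.0, SAMtools 1.9, DESeq2 1.26.0 and R 3.6.1.

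The counts were rounded and tested in R 4.3.3 with edgeR 4.0.16 (filterByExpr, 12883 genes kept; TMM; quasi-likelihood F-test on all 9 libraries, 1 coefficient per density). P-values were adjusted by Benjamini-Hochberg over all genes tested, with a threshold of 0.05. The SE is the size of the log2 fold change over the square root of its F statistic, and 95% intervals were taken from the SE and the test's degrees of freedom. A code check on simulated counts preceded the fit. Floors cover counting error only. No replicate libraries were alike within sampling noise (chi-square per degree of freedom 16.2 to 185). Alternatives were DESeq2 1.42.0, limma voom 3.58.1, other scalings and filters, a replicate block, a roX covariate, the 2 compared groups alone, and leaving out each library.

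Values in every library are given for members called in any test, the 10 with the highest mean CPM per kb, and, where no member was called, the 3 with the smallest p. Obp50e, Obp56i, Obp58c and Obp83g were added after their values were seen. Of the chemosensory list, Orco, lush, Snmp1 and up to 4 called genes per comparison are named. Members and lists were chosen with earlier results of these data known. Coding lengths come from Ensembl's annotation of the same assembly, and all 51 members matched the RefSeq gene table.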

Additional observations from a re-analysis of the deposited data

How the results depend on the processing

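Obp99b and Obp99c kept their calls and direction between high and low and between high and medium density in all 19 alternatives, with edgeR, DESeq2 or limma adjusted p up to 0.0361. Obp83ef lost its call against medium in 9 of 19 (library totals, roX covariate, 2 groups alone, and without low replicate 1, any medium replicate, or high replicate 1 or 2), with adjusted p from 5.68e-05 to 0.103. Obp counts between high and low were 2 in the main test, 6 of 21 with DESeq2 (28.6%, beside 22.4% of all genes), 5 (3 higher) with library totals (23.8%, beside 19.7%), and 2 to 9 when 1 library was left out. Between high and medium they were 3, 5 with DESeq2 (23.8%, beside 44.8%), 8 (6 higher, 2 lower) with library totals (38.1%, beside 45.8%), and 2 to 9 without 1 library. For the joint test they were 2, 6 with DESeq2 (28.6%, beside 46.7%), 6 with library totals (beside 42.8%), and 2 to 8 without 1 library. Each highest value was without high replicate 3, beside 21.2%, 37.2% and 32.7% of all genes. Library totals moved the median over all genes, on the log2 scale, from 0.06 to 0.21 (high against low) and from 0.01 to 0.26 (high against medium). Medium against low gave 0 Obp calls in all 19 alternatives, where all-gene calls were 12.2% with DESeq2, 8.34% without medium replicate 2, 0.0559% with the 2 groups alone and 0% in the others.

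Obp44a against low turned from -0.04 to 0.047 (upper-quartile factors) and 0.11 (library totals), Obp56h from -0.14 to 0.010 (library totals), and Obp56a from -0.29 to a range of -0.63 to 0.084 without 1 library (0.084 without low replicate 3). For the other chemosensory genes, the 3 calls of high against low became 5 with library totals, 1 with at least 10 counts in every library, 1 with the 2 groups alone and 1 to 3 without 1 library (1 without low replicate 1 or 2, medium replicate 1 or high replicate 2). The 0 of medium against low became 1 with DESeq2. The 4 of high against medium became 2 with the roX covariate, 2 with the 2 groups alone and 2 to 6 without 1 library (2 without low replicate 1, any medium replicate or high replicate 2). The 4 of the joint test became 7 with DESeq2, 2 with no filter, 1 with at least 10 counts, 1 with the roX covariate and 1 to 4 without 1 library (1 without low replicate 1, medium replicate 1 or 3, or high replicate 2; 2 without low replicate 2 or medium replicate 2). The cause was not tested.

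No pairing of the pools by replicate number was seen: deviations of same-numbered libraries correlated at -0.34 to 0.28. Those of differently numbered libraries correlated at -0.54 to 0.51, and the best match had the same number in 6 of 18 cases. With 3 libraries per group this check is weak. With a replicate block the Obp counts were 2, 0 and 4 (Obp56i added, higher) in the 3 comparisons and 2 in the joint test.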
